A study of Mus musculus with 2 samples.

Results

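ILC2s that carried Il5 transcripts but no Il13 transcript were examined in single-cell RNA-Seq libraries of lung ILC2s from WT and Pac1-/- mice. Kept barcodes had 500 or more genes detected and no more than 10% of UMIs from mitochondrial genes, where a UMI (unique molecular identifier) stands for 1 captured transcript. A kept barcode was called an Il5-only ILC2 if it held at least 2 Il5 UMIs, 0 Il13 UMIs and 0 Il2 UMIs. The rule found 1829 of 15481 kept barcodes, namely 1205 of 8394 from WT mice and 624 of 7087 from Pac1-/- mice. Il5, Il13 and Il2 chose these cells, so their levels below are a description and not a finding.

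Pac1, the gene Dusp2, encodes a nuclear phosphatase that removes phosphate from MAP kinases, and it is deleted in every cell of the Pac1-/- mice. Mice were 6 to 8 weeks old and on the C57BL/6J background, and no challenge or treatment of the animals is given for these samples. ILC2s of 4 to 5 mice were pooled for each library, sorted as live Lineage- CD90.2+ ST2+ Sca-1+ cells, and 13000 cells of each genotype were loaded for 3′ droplet sequencing. Each genotype is therefore 1 library with no replicate, and no test between genotypes was possible. All intervals, given as a lower and an upper bound, are exact 95% intervals that cover counting error only, and a difference between genotypes cannot be told apart from one between pools or libraries.

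ILC2s are innate lymphocytes of tissues such as the lung, lack rearranged antigen receptors and answer alarmins such as IL-33 with type 2 cytokines. IL-5 supports the growth, survival and recruitment of eosinophils, and lung ILC2s make it even without challenge. IL-13 drives mucus production by goblet cells and contraction of airway smooth muscle. Both genes lie in the type 2 cytokine locus together with Il4, and both depend on the transcription factor GATA3. CGRP, the neuropeptide encoded by Calca, acts through Calcrl paired with a RAMP protein, raises cAMP in ILC2s and is known to restrain their proliferation and IL-13 secretion while leaving or raising IL-5.

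Il5 (ENSMUSG00000036117) occupies chr11:53720794-53725106 on the plus strand of GRCm38 and Il13 (ENSMUSG00000020383) chr11:53631324-53634702 on the minus strand, so that the starts of the genes are 86.1 kb apart and diverge, with Rad50 at chr11:53649519-53707319 between them. Il4 lies beside Il13 at chr11:53602982-53618669. Because the cells differ in which of the neighbouring cytokine genes left a transcript, the 250 bases before the start of Il5 (chr11:53720544-53720793), Il13 (chr11:53634703-53634952) and, as the neuropeptide gene that went with Il5 here, Calca (chr7:114636358-114636607) are shown, each 5′ to 3′ on the strand of its gene. They are from RefSeq on GRCm38.p6. Capitals mark AGATAA, a form of the GATA motif, and the cAMP response element half-site TGACG, found on either strand.

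Il5: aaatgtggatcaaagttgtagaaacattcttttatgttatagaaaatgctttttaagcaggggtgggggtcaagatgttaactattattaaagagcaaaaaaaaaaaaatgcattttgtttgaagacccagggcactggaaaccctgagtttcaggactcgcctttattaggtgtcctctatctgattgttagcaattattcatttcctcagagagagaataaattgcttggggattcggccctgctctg

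Il13: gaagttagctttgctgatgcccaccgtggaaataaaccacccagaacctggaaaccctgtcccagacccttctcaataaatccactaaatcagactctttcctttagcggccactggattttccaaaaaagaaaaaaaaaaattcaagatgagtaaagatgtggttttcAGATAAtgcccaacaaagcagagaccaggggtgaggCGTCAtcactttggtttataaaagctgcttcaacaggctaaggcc

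Calca: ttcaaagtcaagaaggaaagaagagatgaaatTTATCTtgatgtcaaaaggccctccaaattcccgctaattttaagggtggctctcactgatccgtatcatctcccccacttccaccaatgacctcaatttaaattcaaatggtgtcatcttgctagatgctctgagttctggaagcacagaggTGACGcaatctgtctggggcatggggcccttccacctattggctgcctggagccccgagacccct

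The Il13 window held AGATAA from base -81 and TGACG on the opposite strand, read as CGTCA, from base -45. The Calca window held AGATAA on the opposite strand, read as TTATCT, from base -218 and TGACG from base -65. Neither AGATAA nor TGACG, nor the full element TGACGTCA or the AP-1 motif TGANTCA, was found in the Il5 window or in either of the Il4 windows. Other forms of the GATA motif were not searched for and are not marked. Such forms occur, as the Il5 window holds AGATAG on the opposite strand, read as CTATCT, and an Il4 window holds TGATAG. Among 32851 windows of the same kind over the genome, 9.99% held AGATAA, 17.8% TGACG, 6.75% TGANTCA and 1.55% TGACGTCA. TGACG is contained in TGACGTCA, so these counts overlap. A match is a description of letters and not a binding site, and its absence says only that these letters are not in the window.

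The WT library held 10866 barcodes and the Pac1-/- library 9495, and the kept barcodes held 54579034 and 58338886 UMIs, with medians of 4186.5 and 5577 per barcode. Dusp2 was counted 1419 times in kept WT barcodes and 5 times in kept Pac1-/- barcodes, and in Il5-only cells 142 times and 1 time, as the genotype labels say. The libraries shared 29 barcode sequences, 15 of them among kept barcodes and 0 among Il5-only cells. A further 156 WT and 78 Pac1-/- barcodes met the cytokine rule but not the quality limits and were not used.

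The identity of the cells as ILC2s was checked with 7 ILC2 markers other than Il5. At least 2 of them were present in 99.3% of WT and 99.2% of Pac1-/- Il5-only cells, and their summed level was 7449 and 7148 CPM (UMIs of a gene scaled to all UMIs of the class), against 6229 and 5683 CPM in other barcodes of the same depth. Gata3, the defining transcription factor, had a UMI in 94.2% and 95.8% of Il5-only cells. Il1rl1, which encodes the ST2 receptor used in the sort, had one in 95.2% and 96.5%. Of the 8 T cell markers, Cd8a and Cd4 were at 0 in Il5-only cells of both libraries, while the summed level of the list, mainly CD3 and T cell receptor constant genes that ILC2s also transcribe, was 647 and 892 CPM against 714 and 954 CPM in matched barcodes. The B cell marker Ms4a1 was at 0 in both, and the B cell list stood at 43.9 and 57.2 CPM. NK cell and myeloid lists stood at 0.763 and 1.27 CPM in WT cells and at 17.0 and 1.52 CPM in Pac1-/- cells, where 73 of the 90 UMIs of the NK cell list lay in 1 barcode and left 3.23 CPM without it. Eosinophil markers, which would mark carry-over from the cells that IL-5 acts on, were at 0 UMIs in WT and 1 UMI in Pac1-/- cells.

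Il5-only cells made up 14.4% of kept WT barcodes (13.6% to 15.1%) and 8.80% of kept Pac1-/- barcodes (8.16% to 9.49%). Cells with Il5 at the same minimum and at least 1 Il13 UMI, again without Il2, made up 11.4% and 6.31%. Barcodes with none of the 3 cytokines made up 34.6% and 43.0%. Both Il5-carrying classes without Il2 were thus a smaller share of the Pac1-/- library, although its barcodes were deeper. Barcodes with Il5 at that minimum and no Il13 but at least 1 Il2 UMI, which the rule left out, went the other way. They made up 3.61% of WT and 4.13% of Pac1-/- kept barcodes, or 10.1% and 17.2% of those with at least 2 Il5 UMIs.

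Since a deeper barcode is more likely to show any given transcript, each barcode was also reduced at random to 2000 UMIs, with 914 WT and 617 Pac1-/- shallower barcodes left out. The Il5-only share was then 13.9% in WT and 7.62% in Pac1-/-. At 1000 UMIs it was 9.27% and 4.83%. The lower share in the Pac1-/- library was present at each depth. Membership itself was not stable, because only 656 of 1037 WT and 289 of 493 Pac1-/- cells that met the rule at 2000 UMIs also met it with all their UMIs, the others having an Il13 or Il2 UMI among those removed. Il5-only is therefore a statement about the transcripts captured, and Il13 below detection is not the same as Il13 not transcribed.

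In 5 equally filled bins of depth set over both libraries, the Il5-only share of WT barcodes went from 9.18% in the shallowest bin to 21.7% in the next to deepest and was 13.9% in the deepest. In Pac1-/- barcodes the corresponding values were 6.19%, 12.3% and 10.1%. Cells with both cytokines had no such turn, with 2.51% in the shallowest and 24.7% in the deepest WT bin and 1.44% and 12.3% in Pac1-/-. WT exceeded Pac1-/- in Il5-only cells in all 5 bins.

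**Figure D1:**
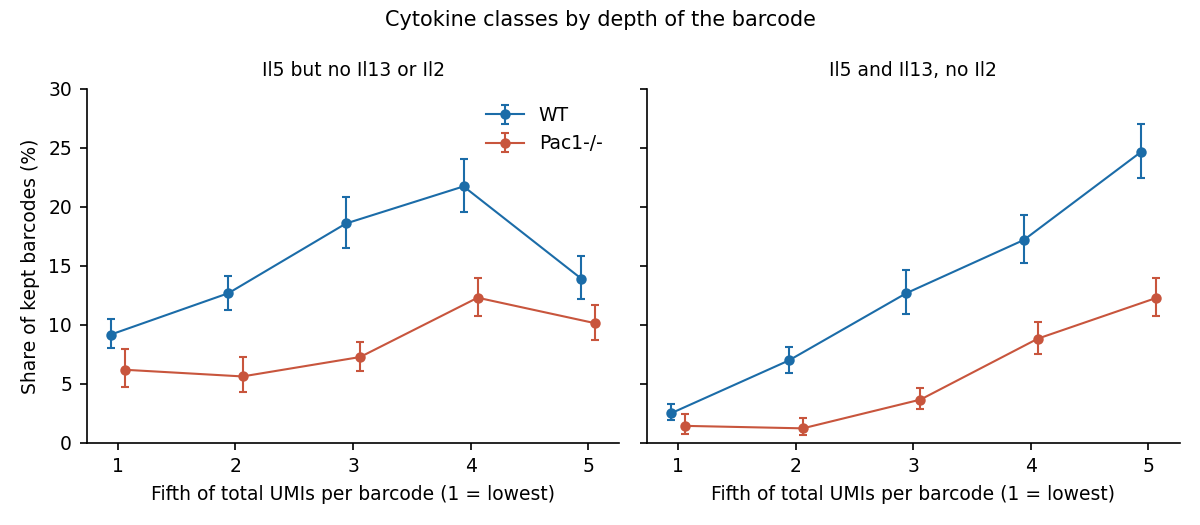
Share of kept barcodes in each of 5 bins of total UMIs that were Il5-only or carried both Il5 and Il13, for WT and Pac1-/- libraries, with exact 95% intervals for counting error. The Il5-only share peaks in the next to deepest bin at 21.7% in WT and 12.3% in Pac1-/-, whereas the share with both cytokines is highest in the deepest bin.

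As a background for free RNA, barcodes with B cell markers were taken as cells that should lack Il5. With at least 2 of 5 markers, 10 of 68 WT (14.7%) and 10 of 138 Pac1-/- barcodes (7.25%) met the Il5-only rule, close to the shares of the whole libraries. Of these barcodes 63 and 121 also held Gata3 and Il1rl1, and their median depth was 13777.5 and 11225.5 UMIs, against 4877 and 6648.5 in Il5-only cells. With at least 3 of 5 markers, a set chosen after seeing the data, 0 of 10 WT and 0 of 23 Pac1-/- barcodes met the rule, where a count of 0 allows up to 30% and 13.04% by a limit of 3 counts. Of the stricter set 5 and 10 barcodes held Gata3 and Il1rl1, 3 and 2 held at least 2 Il5 UMIs together with Il13 or Il2, and after reduction to 2000 UMIs 2 of the 10 WT barcodes met the rule. Neither set was free of ILC2 transcripts, so no background level for Il5 from free RNA could be given, and its part in the Il5-only shares was not tested.

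The Il5 count of Il5-only cells had a median of 4 UMIs in both libraries and reached 95 in WT and 130 in Pac1-/-. At the threshold, 29.6% of WT and 30.1% of Pac1-/- members held exactly 2 Il5 UMIs. At the other end, 12.7% and 12.3% held over 20 and accounted for 48.5% and 51.6% of the Il5 UMIs of the class. The Il5 level was 1421 CPM in WT and 1237 CPM in Pac1-/- Il5-only cells, against 1535 and 1415 CPM in cells with both cytokines. The class held 28.5% of all Il5 UMIs of the kept WT barcodes and 27.7% of those of Pac1-/-.

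Il13 detection went with the amount of Il5. Of WT barcodes with 0, 2 and over 20 Il5 UMIs, 14.8%, 29.9% and 66.4% had an Il13 UMI, and of Pac1-/- barcodes 12.1%, 28.8% and 69.1%. Barcodes with more Il5 were also deeper, and the share with Il2 went from 14.2% to 33.1% in WT. At 2000 UMIs per barcode the Il13 share was 11.5% at 0, 24.9% at 2 and 34.8% at 11 to 20 Il5 UMIs in WT, and 7.53%, 24.4% and 43.3% in Pac1-/-, while the Il2 share was 9.19% at 0 and 4.96% at 11 to 20 in WT. Above 20 Il5 UMIs the Il13 share was 46.9% of 32 WT and 33.3% of 21 Pac1-/- barcodes. At equal depth the Il13 share at 11 to 20 Il5 UMIs was thus above that at 0 in both libraries, the barcodes above 20 were too few to place, and the Il2 share of WT was not higher with Il5. Even so, Il13 was found in only 383 of 577 WT barcodes with over 20 Il5 UMIs.

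**Figure D2:**
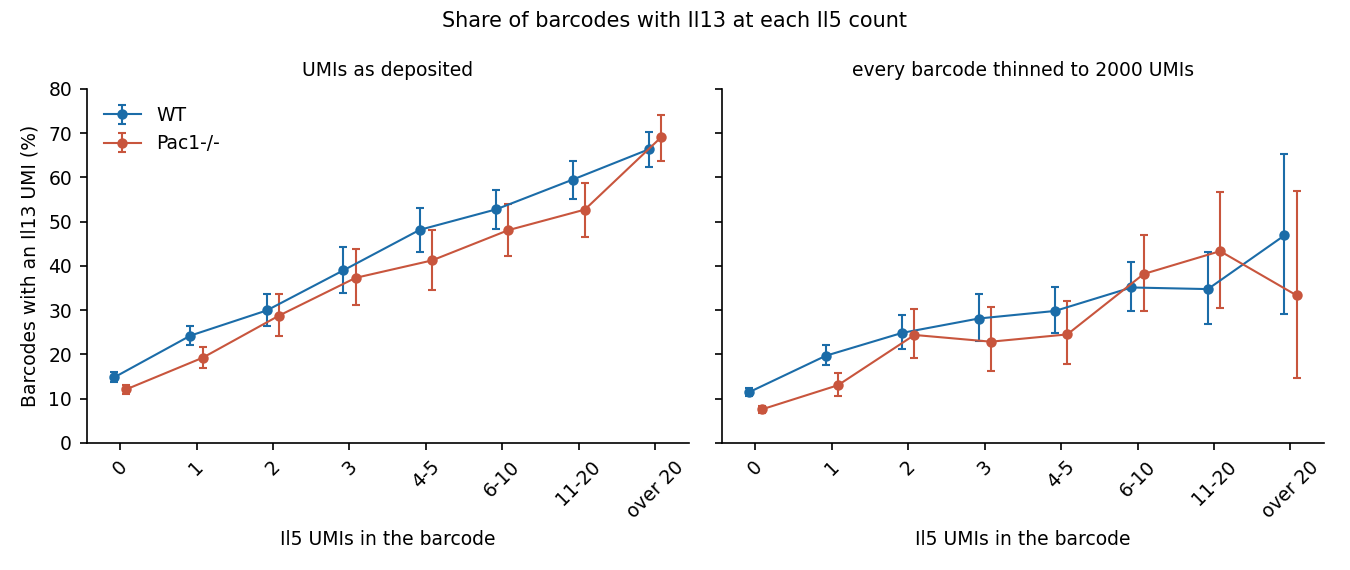
Share of barcodes with at least 1 Il13 UMI against the number of Il5 UMIs, with all UMIs and after reduction to 2000 UMIs per barcode, for WT and Pac1-/-, with exact 95% intervals and without points of under 20 barcodes. With all UMIs the WT share goes from 14.8% to 66.4%, and at equal depth it starts at 11.5% and stays below that of the full counts.

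Other effector transcripts were common in Il5-only cells. At least 2 of 14 effector genes that the rule did not use were detected in 82.9% of WT and 87.3% of Pac1-/- members, and none in 4.48% and 1.44%. Csf2, which encodes GM-CSF, had a UMI in 73.1% and 82.1% of Il5-only cells, and Areg, the epidermal growth factor family member amphiregulin, in 69.9% and 76.0%. Calca had one in 67.1% and 60.1%. Il4, the third cytokine of the locus, had one in 5.73% and 7.85%, and Il6 in 2.41% and 2.88%.

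Calca and Il4 differed between the cytokine classes in level. Calca stood at 739 CPM in WT and 692 CPM in Pac1-/- Il5-only cells, at 762 and 774 CPM in cells with both cytokines, at 467 and 422 CPM in cells with at least 2 Il13 UMIs and no Il5, and at 251 and 158 CPM in cells with none. Il4 stood at 12.97 and 13.07 CPM in Il5-only cells, 25.1 and 23.0 CPM with both cytokines, 79.3 and 94.2 CPM with Il13 and no Il5, and 16.1 and 15.8 CPM with none. As class levels, Calca was highest in the Il5-carrying classes, but members with 2 or 3 Il5 UMIs held 481 and 384 CPM, about the level of cells with Il13 and no Il5. Il4 was highest in cells with Il13 and no Il5.

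Comparisons across genes were made within each library between Il5-only cells and as many barcodes of nearly the same depth, leaving the 3 rule genes out. A gene was tested if it had at least 50 UMIs over both sides in each library, and it counted as higher or lower if it was past 1.5-fold (0.58 on the log2 scale) in the same direction in both libraries. Values are log2 ratios of CPM, WT first and Pac1-/- second. Because the cells were chosen by cytokine genes that vary with many others, these comparisons describe the class.

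Against matched barcodes of every other kind (1205 and 624 pairs), 45 of 8828 genes were higher (0.51%) and 66 lower (0.748%) in Il5-only cells, and for 44 (0.498%) and 35 (0.396%) of them the counting intervals excluded no change in both libraries. The comparison barcodes were mixed, since 25.9% of them in WT and 32.5% in Pac1-/- had an Il2 UMI, 15.7% and 8.33% both Il5 and Il13, and 36.7% and 39.7% none of the 3 cytokines. Within single libraries 1.56% of genes were past the fold upward in WT and 2.48% in Pac1-/-. Of such genes tested in both libraries, 43.3% of the 104 higher in WT and 20.7% of the 217 higher in Pac1-/- were among the 45. The median gene lay at -0.08 and -0.11, and on a scale centred on it 83 genes were higher and 24 lower, so the balance of directions depends on the scaling.

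Genes that answer cAMP and CGRP made up the list with most higher members, at 6 of 15, with a list median of 0.47 and 0.60. Calca was counted 5811 times in WT Il5-only cells and 3604 times in their matched barcodes, and 3653 and 1630 times in Pac1-/-, giving 739 against 458 CPM and 692 against 309 CPM. The Calca log2 ratios were 0.69 (0.63 to 0.75) and 1.16 (1.08 to 1.25). Crem, a cAMP-induced transcription factor of the CREB family, was higher by 0.65 and 1.11, at 657 against 420 CPM in WT and 437 against 202 CPM in Pac1-/-. Icos, the costimulatory receptor that sustains ILC2s, was at 326 against 213 CPM and 361 against 220.1 CPM, or 0.61 and 0.72, although among barcodes with ILC2 and no T or B cell markers its WT value was 0.18. The phosphodiesterase gene Pde4d, which degrades cAMP (0.67 and 0.66), the costimulatory receptor gene Tnfrsf9 (0.77 and 0.99) and Perp, a desmosomal membrane protein gene (1.06 and 1.16), completed the 6. All were also higher after centring on the median gene. With a minimum of 1 Il5 UMI only Perp of the list stayed past the fold. The list was drawn up with earlier results of these data known and is no independent evidence of a direction.

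Receptors for neural and lipid signals did not move together, with a list median of -0.11 and -0.08 and 1 of 12 tested genes higher. That gene was Ramp3, which pairs with Calcrl to form an adrenomedullin receptor, at 301 against 177 CPM in WT and 259 against 97.6 CPM in Pac1-/- (0.76 and 1.41), although among barcodes with ILC2 and no T or B cell markers the WT value of Ramp3 was 0.09. Among growth genes 1 of 12 was higher, Odc1, the rate-limiting enzyme of polyamine synthesis, at 0.67 and 0.998. None of 5 tested chemokine genes, 13 cytokine receptor genes, 13 lineage transcription factor genes, 15 genes of NFAT and NF-kB activation, 15 immediate-early genes or 8 heat shock genes passed the fold in both libraries. Centred on the median gene, Cxcl1, Cxcl2, Cxcl3, Il2rb and Zbtb16 of these lists were higher, so the counts of 0 for chemokines, cytokine receptors and lineage factors do not hold on that scale. Nor did the counts of 0 hold on the uncentred scale without deep barcodes, where genes of every one of these lists passed the fold (below). Gata3 itself was at 0.36 and 0.33, Rora at 0.35 and 0.61, Csf2 at -0.13 and 0.19, and Areg at 0.11 and 0.47.

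Il4 was the effector gene that was lower, at 102 against 211 UMIs in WT and 69 against 105 in Pac1-/-, or 12.97 against 26.8 CPM and 13.07 against 19.9 CPM. Its log2 ratio was -1.05 (-1.40 to -0.70) and -0.61 (-1.07 to -0.15). The Pac1-/- value of Il4 was within the fold under 4 of 8 alternatives and reached -0.50 when centred on the median gene. Pik3ip1, an inhibitor of PI3 kinase that marks resting lymphocytes, was lower at -0.75 and -0.87.

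By the ranking used for all genes, the largest differences above were those of the Wnt receptor gene Fzd4 (1.15 and 1.81), Perp, Cystm1 (1.13 and 1.05), the drug efflux transporter gene Abcb1a (1.05 and 1.32), the inflammasome sensor gene Nlrp3 (1.27 and 0.95), Jdp2, an AP-1 family repressor (0.92 and 1.26), the kinase gene Pak1 (0.91 and 1.02), the urokinase receptor gene Plaur (0.86 and 1.22), C9orf72, the melanocortin receptor gene Mc5r (1.33 and 0.84) and Zfp503. Scgb1a1, the club cell secretory protein gene and an epithelial marker, ranked among them at 1.15 and 4.05, but 1433 of its 1545 UMIs in Pac1-/- and 86 of 204 in WT lay in 1 barcode, and without the top barcode of each side it stood at 0.41 and 0.32. The epithelial list as a whole was at 44.9 against 27.7 CPM in WT and 319 against 184 CPM in Pac1-/-. In Pac1-/- 1 barcode held 1449 of the 1683 UMIs of the list in Il5-only cells, and without it alone the list stood at 44.4 CPM, below the 184 CPM of the matched barcodes. These in turn had 775 of 971 UMIs in 1 barcode, and without the richest barcode on each side the list was at 33.98 against 27.3 CPM in WT and 44.4 against 37.1 CPM in Pac1-/-. Pecam1, an endothelial marker that some leukocytes also express, was just past the fold at 0.60 in both libraries, in 6 of 10 alternatives in WT and 4 of 10 in Pac1-/-. Those that kept it include minima of UMIs per gene, which cannot change its ratio. The endothelial list stood at 54.6 against 37.5 CPM in WT and 50.6 against 34.9 CPM in Pac1-/-. Pecam1 was the only 1 of its 4 genes with enough UMIs to be tested, so the list adds little to that gene. At least 2 endothelial markers were present in 0 WT and 1 Pac1-/- Il5-only cells, against 5 and 1 matched barcodes. The part of epithelial and endothelial transcripts in other differences was not tested. Of the genes that were lower, the haemoglobin gene Hbb-bs likewise rested on 1 barcode (-0.00 and -0.06 without it), and the Pac1-/- value of ENSMUSG00000094686 did so too (-0.28 without it, while WT stayed at -0.94). Hba-a1, a haemoglobin gene as well, was lower at -0.74 and -0.72, and at -0.66 and -0.70 without the top barcode of each side. The part of red cell RNA was not tested. The remaining named genes were the nuclear receptor gene Nr2c1, Iffo1, Gatb, Erlin1, Dpm2, Tle2, Etfrf1, Pmvk and Odf2l, between -0.75 and -1.5. Without the top barcode on each side, 43 of the 45 higher and 59 of the 66 lower genes stayed past the fold.

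**Figure D3:**
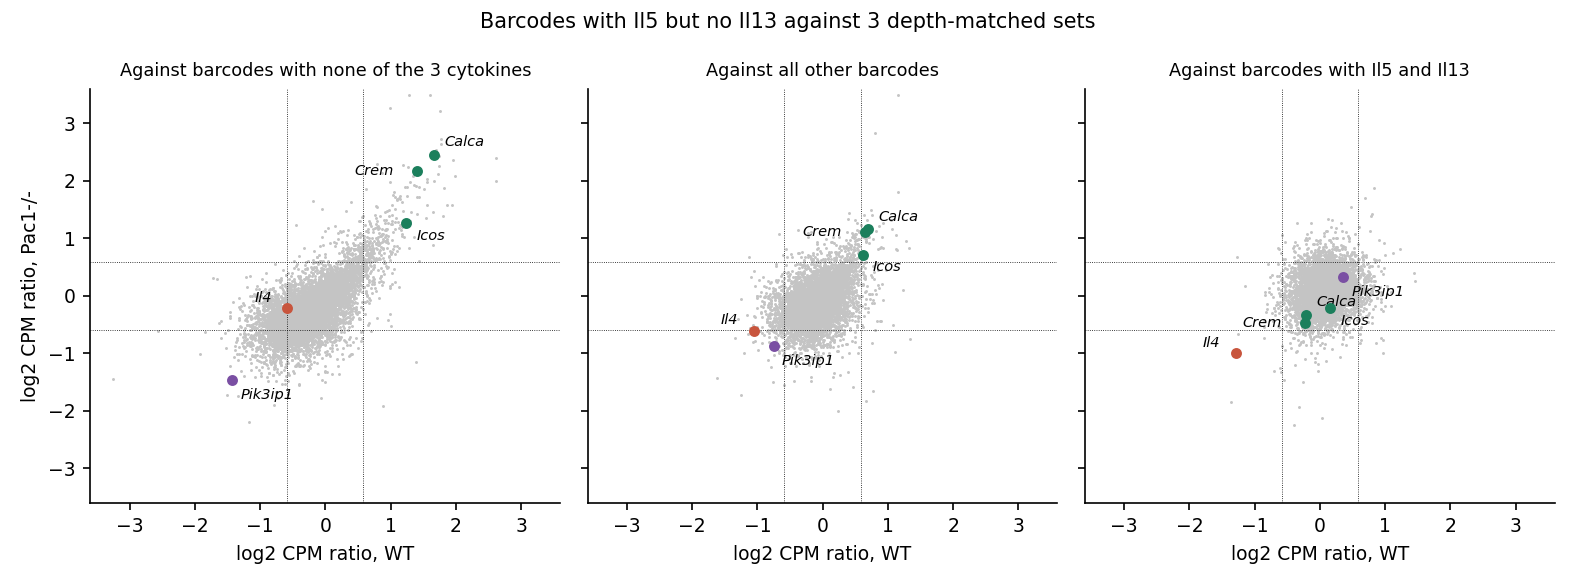
Log2 CPM ratio of each tested gene between Il5-only cells and depth-matched barcodes, WT on the x axis and Pac1-/- on the y axis, for barcodes with none of the 3 cytokines, all other barcodes and barcodes with both Il5 and Il13; dotted lines mark 1.5-fold. Calca, Crem and Icos lie in the upper right of the first and second panels and within the lines in the third, where Il4 is at -1.29 and -0.99.

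The contrast was sharper against cells with none of the 3 cytokines (1002 and 590 pairs), where 262 of 8347 genes were higher (3.14%) and 560 lower (6.71%). The median gene lay at -0.21 and -0.24 here, and on a scale centred on it 502 genes were higher and 112 lower, so the balance of directions reverses with the scaling. Of the 15 cAMP and CGRP response genes 12 were higher, with a median of 0.92 and 1.18. Calca was at 814 against 257 CPM in WT and 749 against 136 CPM in Pac1-/- (1.66 and 2.46), Crem at 1.40 and 2.17, Tnfrsf9 at 1.77 and 2.64, Icos at 1.24 and 1.26, and the proton sensor gene Gpr65 at 0.92 and 0.94. Ramp3 stood at 1.74 and 2.44.

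Of 5 tested chemokine genes 4 were also higher than in cytokine-free cells, with a median of 1.15 and 1.58. Cxcl1, Cxcl2 and Cxcl3, which attract neutrophils, were at 1.87 and 1.58, 1.15 and 1.73, and 1.77 and 2.72. Ccl1, a ligand of CCR8, was at 0.59 and 1.04. Against cells with Il13 and no Il5 none of the 5 was higher (Cxcl3 alone after centring on the median gene), the list median being -0.20 and -0.09, and Ccl5 was lower (-0.92 and -1.31, with 57 of its 92 UMIs in those Pac1-/- cells in 1 barcode and -0.67 without it). Of 13 lineage transcription factor genes 5 were higher, namely Gata3 (0.78 and 0.67), Rora (0.81 and 1.16), Id2 (0.59 and 0.61), Nfil3 and Zbtb16. The IL-2 receptor genes Il2ra (0.62 and 0.72) and Il2rb (1.22 and 1.89), the IL-4 receptor gene Il4ra (0.73 and 1.12) and the NF-kB genes Nfkb1 (0.64 and 0.95), Nfkb2 and Rel (1.02 and 1.26) were higher as well. Areg was at 870.4 against 549 CPM and 1151 against 467 CPM (0.66 and 1.30), whereas Csf2 was at 0.53 and 0.75 and passed the fold in WT only after centring on the median gene.

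Genes lower than in cytokine-free cells included Nmur1, the receptor of the activating neuropeptide neuromedin U, at 21 against 60 UMIs in WT and 25 against 47 in Pac1-/- (-1.53 and -0.91). The redox and glucose uptake regulator Txnip (-0.68 and -0.86), Pik3ip1 (-1.43 and -1.46), Il9r (-0.60 and -0.60) and the survival gene Bcl2 (-0.67 and -0.73) were lower too. Of 8 heat shock genes 3 were lower, Hspa1a (-1.26 and -0.72), Hspa1b (-1.25 and -0.80) and Dnajb1 (-1.11 and -0.73), which code for stress-induced chaperones that cell isolation can raise. Centred on the median gene, Txnip, Il9r, Bcl2 and these 3 heat shock genes were no longer past the fold in both libraries, whereas Nmur1 and Pik3ip1 were. Markers of other cells moved in this comparison too. Pecam1 was higher (0.90 and 0.61), Scgb1a1 was higher through 1 barcode in each library (0.38 and 0.25 without the top barcodes), Hba-a1 was lower (-1.16 and -2.19, and -1.17 and -1.26 without the top barcodes), and the B cell marker Ighm was lower (-0.78 and -0.85) but not past the fold once centred. Their part in the other differences was not tested. Among the largest differences by rank were those of the scaffold gene Akap12 (2.62 and 2.39), Abcb1a (2.62 and 1.997), Pak1 (1.98 and 2.09), Raph1 (1.96 and 2.37) and the costimulatory receptor gene Cd28 (1.75 and 3.22).

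**Figure D4:**
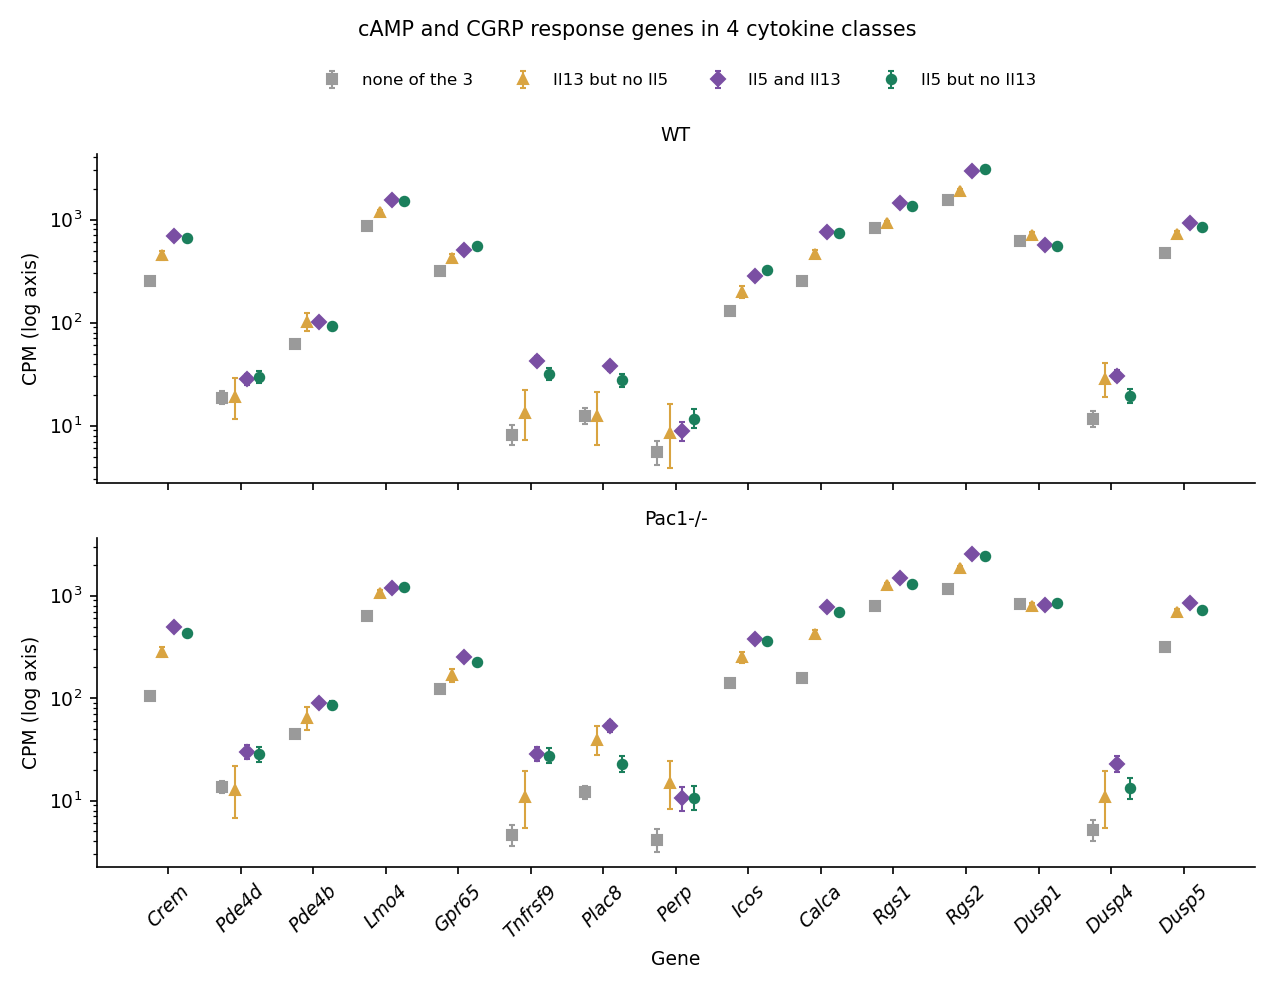
Level of each of the 15 cAMP and CGRP response genes, as CPM on a log axis with exact Poisson 95% intervals, in cells with none of the 3 cytokines, Il13 but no Il5, Il5 and Il13, and Il5 but no Il13, for WT (upper) and Pac1-/- (lower) libraries. For Calca, Crem and Icos the Il5-carrying classes lie above both classes without Il5 in each library, while Dusp1 shows no such order.

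Few genes were past the fold between Il5-only cells and cells with both cytokines. Over 814 and 399 pairs, 28 of 8121 genes were higher (0.345%) and 7 lower (0.0862%), and with the same number of pairs the comparison with cytokine-free cells gave 262 and 526 (3.45% and 6.92% of 7603). The counting intervals excluded no change in both libraries for 12 of the 28 (0.148%) and 5 of the 7 (0.0616%). Centred on the median gene, 17 genes were higher and 14 lower, and without matching on depth 8 and 10, so the balance of directions depends on these choices. No cAMP and CGRP response gene was higher and 1 of 15, Dusp4, was lower, with a list median of -0.10 and -0.29 beside a median gene of 0.04 and 0.06. Centred on that gene, 3 of the 15 were lower, Tnfrsf9 and Plac8 joining Dusp4. Calca was at 714 against 828 CPM and 686 against 860.5 CPM, Crem at -0.23 and -0.47, Csf2 at -0.38 and -0.41, and Areg at -0.39 and -0.34. Each of these lay below 0 with its counting interval in both libraries and within 1.5-fold.

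Il4 was lower in Il5-only cells in summed level, although most cells of both classes held no Il4 UMI. It was counted 73 times in WT Il5-only cells against 179 times in matched cells with both cytokines, and 55 against 110 times in Pac1-/-. These counts gave 11.4 against 27.7 CPM in WT and 13.5 against 26.8 CPM in Pac1-/-. An Il4 UMI was present in 6.14% against 12.04% of these WT cells and in 9.77% against 17.8% of these Pac1-/- cells. The log2 ratio was -1.29 (-1.70 to -0.89) and -0.99 (-1.49 to -0.51), and it stayed past 1.5-fold in both libraries under each of the 8 alternatives that gave it a value. A minimum of UMIs per gene, which cannot change the ratio, is among these 8. The other genes that were lower were Ptgs2, the inducible cyclooxygenase (-0.86 and -0.73), Il6 (-1.25 and -0.66, with a Pac1-/- interval of -1.38 to 0.04), the chemokine receptor gene Ccr7 (-1.37 and -1.84), the MAP kinase phosphatase gene Dusp4 (-0.71 and -1.31), Akap12 (-0.62 and -1.26) and Tnip3. Ptgs2 was no longer past the fold in 6 of 10 alternatives in Pac1-/- and in 2 of 10 in WT, among them another random order of matching and the removal of deep barcodes. In Pac1-/- about as many cells on each side held a UMI of Ccr7 (2.76% and 2.76%) and of Akap12 (8.77% against 9.52%). In WT these shares were 1.60% against 3.93% and 7.74% against 10.3%. Without the top barcode of each side Ccr7 stood at -1.61 and -1.76 and Akap12 at -0.64 and -1.23. The neighbours of the cytokine genes did not follow Il4, with Rad50 at -0.21 and -0.10, Kif3a at -0.16 and 0.43 and Irf1 at -0.01 and 0.04.

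The 12 genes ranked as higher than in cells with both cytokines were the interferon-inducible gene Ifi209 (0.98 and 0.92), the metallothionein gene Mt1 (0.83 and 1.87), Nudcd1, Pdik1l, Tmem203, Rnf169, Dennd4b, AI593442, Igfbp4, Insig2, Pde4dip and Rhbdd2. They belong to no shared list here. Several were unstable, since Rhbdd2 stayed past the fold in 1 of 7 alternatives in WT and 2 of 7 in Pac1-/-, Insig2 in 2 of 7 in Pac1-/-, AI593442 in 2 of 6 in WT and Pde4dip in 3 of 7 in WT, and these 4 were lost in at least 1 library with another random order of matching. The alternatives counted here and elsewhere include minima of UMIs per gene, which cannot change the ratio of a single gene. In WT the 1 alternative that kept Rhbdd2 was of that kind. Among genes with at least 200 UMIs none was higher. Of the Mt1 UMIs of Il5-only cells, 29 of 145 in WT and 25 of 51 in Pac1-/- lay in 1 barcode. Without the top barcode of each side Mt1 stood at 0.62 and 1.25.

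Cells with at least 2 Il13 UMIs, no Il5 and no Il2 were fewer, at 201 WT and 141 Pac1-/-. Against them 30 of 4072 genes were higher (0.737%) and 37 lower (0.909%) in Il5-only cells. Il4 was at 18 against 84 UMIs and 11 against 96 UMIs (-2.22 and -3.13), although up to 23 and 27 of these UMIs came from 1 barcode. Calca was higher at 0.75 in both libraries, with 786 against 467 CPM and 710.2 against 422 CPM. Ramp3 (1.14 and 1.31), Odc1 (0.88 and 1.09), Jdp2 (1.25 and 1.30) and Pdcd1, the inhibitory receptor PD-1 (1.07 and 0.76), were higher as well. Of 8 heat shock genes 4 were lower, Hspa1a (-1.33 and -1.30), Hspa1b, Hsph1 and Dnajb1, together with the early response gene Egr1 (-1.23 and -1.24) and Tnf (-0.70 and -0.83). The median gene lay at -0.04 and -0.03, and centred on it 42 genes were higher and 30 lower.

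A deep barcode can be a doublet of ILC2s, and doublets were not removed. Barcodes over 2 times the median UMIs of their library were 25.1% of WT and 21.3% of Pac1-/- Il5-only cells and held 50.2% and 45.1% of their UMIs, against 44.1% and 38.5% of cells with both cytokines. Without them, 163 of 7368 genes were higher (2.21%) and 319 lower (4.33%) than in matched other barcodes. The median gene lay at -0.15 and -0.20 there, and centred on it 315 genes were higher and 88 lower. The cAMP and CGRP list then had 8 of 14 genes higher with a median of 0.75 and 0.88, and Cxcl1, Cxcl2 and Cxcl3 passed the fold. Of 13 cytokine receptor genes Il18r1, Il2rb and Il4ra were higher, and of 13 lineage factor genes Gata3, Rora, Nfil3 and Zbtb16. Of 11 neural and lipid receptor genes Ramp3, Gpr65 and Adora2a were higher. Rel and Nr4a3 passed the fold upward too. Hspa1a, Hspa1b, Dnajb1, Jun and Egr1 were among the genes that were lower, of which Hspa1a, Jun and Egr1 were within the fold in Pac1-/- once centred. Against cells with both cytokines 32 of 5693 genes were higher and 9 lower. More genes were past the fold without deep barcodes than with them.

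Similarity over the whole transcriptome was read from the 15 nearest neighbours of each cell in 30 principal components of 2000 variable genes, made without the rule genes. Of the neighbours of Il5-only cells, 23.5% in WT and 19.3% in Pac1-/- were Il5-only, against 13.6% and 8.04% for matched other barcodes. Cells with both cytokines made up 19.9% and 15.2% of the neighbours, above their 11.4% and 6.31% of the libraries. The neighbours of cells with both cytokines were Il5-only in 22.9% and 20.4%. Members with over 10 Il5 UMIs had 31.3% and 29.6% Il5-only neighbours, and members with 2 or 3 had 17.2% and 11.2%. Cells with none of the 3 cytokines were 19.8% and 22.7% of the neighbours of Il5-only cells, below their 34.6% and 43.0% of the libraries. Among members with 2 or 3 Il5 UMIs they were 30.2% and 35.3%, also below those shares, and among members with over 10 they were 7.89% and 7.76%. Members with much Il5 thus lay mostly among other Il5-carrying cells. Other barcodes matched in depth to all Il5-only cells had 30.7% and 37.2% cytokine-free neighbours, close to the values of members with 2 or 3. For members with little Il5, the cytokine-free share was thus near that of matched barcodes. Their Il5-only neighbours were little above the 14.4% and 8.80% of the libraries.

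Il5-only cells differed among themselves with the amount of Il5. Members with over 10 Il5 UMIs were compared with depth-matched members with 2 or 3 (278 and 155 pairs), and 157 of 5328 genes were higher (2.95%) and 220 lower (4.13%). The median gene lay at -0.11 and -0.16, and centred on it 253 genes were higher and 98 lower, the reverse balance. Of 12 tested cAMP and CGRP response genes 6 were higher, with a median of 0.64 and 1.02. Calca was at 1007 against 492 CPM in WT and 1088 against 411 CPM in Pac1-/- (1.03 and 1.40), and Crem at 914 against 415 CPM and 671 against 248 CPM (1.14 and 1.44). Icos (1.07 and 1.498), Tnfrsf9 (1.60 and 1.79), Gpr65 (0.94 and 1.06), Ramp3 (1.07 and 1.37) and Il2ra (0.84 and 0.83) were higher in the same cells.

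Lower in members with much Il5 were Cd69, an early activation antigen that retains lymphocytes in tissue, at 737 against 1472 CPM and 906 against 1644 CPM (-0.999 and -0.86), Tnf (-0.96 and -1.59), Jun (-0.81 and -0.76), Egr1 (-0.90 and -0.80) and Hspa1a (-1.31 and -0.86). Cxcl3 was higher at 1.28 and 2.46, and Cxcl2 at 0.64 and 1.36. The genes ranked first were Cystm1 (1.98 and 1.95), Tnfrsf9, Plaur (1.56 and 1.44) and the kinase gene Plk2 (1.54 and 1.40). In the same comparison Pecam1 was higher (1.27 and 0.97) and Ighm lower (-0.78 and -0.76), and the part of other cells was not tested.

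At the threshold itself the contrast was small. Members with exactly 2 Il5 UMIs and barcodes with 1 Il5 UMI and neither Il13 nor Il2 (353 and 187 pairs) gave 6 of 5352 genes higher (0.112%) and 10 lower (0.187%). Among the 6 were Cxcl1 (1.04 and 1.05), Ramp3 (0.68 and 1.01), Pecam1 (0.73 and 1.04) and Odc1 (0.64 and 0.77). Whether the cut separates kinds of cells was not tested.

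Between genotypes, 1261 of 9103 genes were higher (13.9%) and 618 lower (6.79%) in Pac1-/- than in WT Il5-only cells. The median gene was higher by 0.13 on the log2 scale, and relative to it 727 genes were higher (7.99%) and 914 lower (10%). Genotype values below are log2 ratios of Pac1-/- over WT relative to the median gene, with the value in all other kept barcodes second, where the median gene was higher by 0.18. Calls and list counts below use this scale. Without centring, the values in Il5-only cells are higher by 0.13. Dusp4, Ptger4, Nr4a1, Il2rb, Cxcl1 and Ccl1 are then within 1.5-fold, and Csf2 is past it. Both sets come from the same pair of libraries, and whether they differ was not tested.

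Among cAMP and CGRP response genes 3 of 15 were lower in Pac1-/- Il5-only cells and none higher relative to the median gene. The list median was -0.34 in Il5-only cells and -0.62 in other barcodes. Crem was at 657 CPM in WT and 437 CPM in Pac1-/- Il5-only cells (-0.72 and -1.23), Gpr65 at 548 and 224 CPM (-1.43 and -1.56), and Dusp4 at -0.69 and -1.30. Calca was at 739 and 692 CPM in Il5-only cells (-0.23) and at 452 and 318 CPM in other barcodes (-0.69). Tnfrsf9 was at -0.34 in Il5-only cells and at -1.23 in the others, and Icos at 0.01 and -0.07.

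Of 12 receptor genes for neural and lipid signals 5 were lower, with medians of -0.36 and -0.58. Calcrl, the signalling chain of the CGRP receptor, was at 164 CPM in WT and 88.5 CPM in Pac1-/- (-1.02 and -1.09). The VIP receptor gene Vipr2 (-0.92 and -0.76), the prostaglandin receptor genes Ptger4 (-0.63 and -0.65) and Ptgir (-0.75 and -0.86), and Gpr65 were lower. Ramp3 was at -0.35 in Il5-only cells and -1.02 in other barcodes. Of the effector genes Csf2 was at 0.51 and 0.18, Areg at 0.25 and -0.20, and Il4 at -0.12 (-0.59 to 0.33) and -0.46, with only Penk past the fold.

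Il5-only cells of Pac1-/- mice also had less of the nuclear receptor transcripts Nr4a1 (-0.69 and -0.93) and Nr4a3 (-0.75 and -1.20), of Il2rb (-0.63 and -1.06) and of the glycolytic enzyme gene Hk2 (-2.05 and -1.87). The quiescence factor gene Klf2 was higher at 85.6 CPM in WT and 252 CPM in Pac1-/- (1.43 and 1.25). Chemokine genes went both ways, Cxcl3 being higher (1.79 and 1.04) and Cxcl1 (-0.62 and -0.93) and Ccl1 (-0.65 and -0.998) lower.

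Stress genes and markers of other cells differed between the libraries too. The heat shock list had a median of 0.34 in Il5-only cells and 0.25 in other barcodes, with Hspa1a higher at 338 CPM in WT and 729 CPM in Pac1-/- (0.97 and 0.77). Hba-a1 was at 13.4 and 36.2 CPM, the mast cell protease gene Cpa3 was higher (0.70 and 0.88), and the T cell genes Cd3e (-0.86 and -1.03) and Trac (-1.56 and -1.56) were lower. The part of stress during isolation, free RNA or other cells in the genotype values was not tested.

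**Figure D5:**
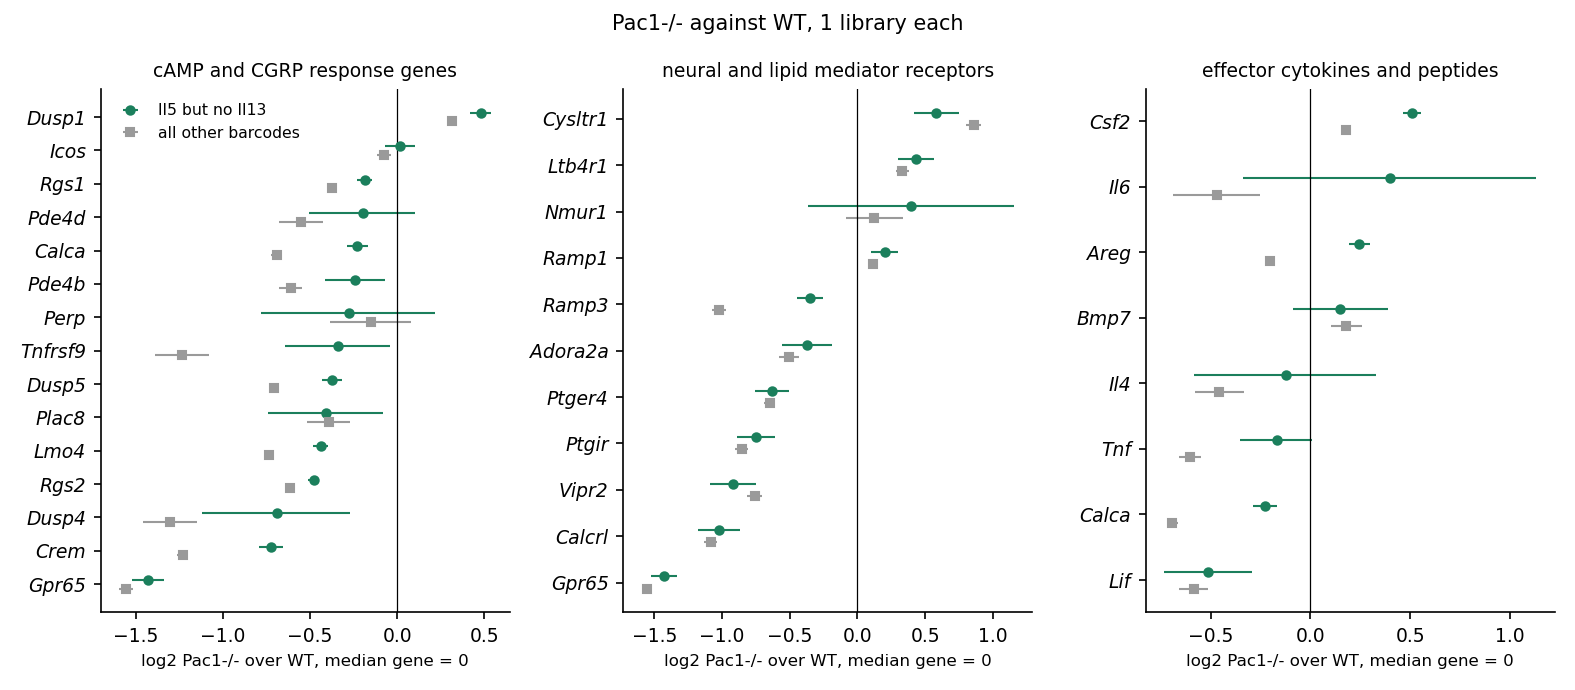
Log2 ratio of Pac1-/- over WT relative to the median gene, with exact 95% intervals for counting error, for genes of 3 lists in Il5-only cells (circles) and in all other kept barcodes (squares); genes with few UMIs and some not reported are not drawn. Gpr65, Crem and Calcrl lie left of 0 in both sets of cells, Csf2 lies right of 0, and Calca is nearer to 0 in Il5-only cells (-0.23) than in the others (-0.69).

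Several genes with the largest genotype ratios stood apart in other barcodes too. The zinc finger gene Zfp990 was at 0 UMIs in WT and 303 in Pac1-/- Il5-only cells, with a counting interval of its log2 ratio from 6.79 upward. In other barcodes it was at 1 and 3297 UMIs. The metalloproteinase gene Mmp16 was at 4 and 256 UMIs (6.44 and 5.62), and the galectin gene Lgals3 at 59 and 458 (3.40 and 2.96). Gzma was at 0 and 66 UMIs, with an interval from 4.56 upward, but 52 of these UMIs lay in 1 barcode, and it was at -0.44 in other barcodes. Ifi27l2a, Gm7324, Ifi208, Gm47015, Serpinb2, Scgb1a1, Gm8797 and Rps27rt completed the 12 highest. After Dusp2 the lowest was Penk, the enkephalin gene, at 52 and 1 UMIs, with 26 in 1 barcode, followed by Gm43305 (10943 and 313 UMIs), Rpgrip1 (180 and 6), A230059L01Rik, Olfr889, Rab6b (142 and 8), Gm10260, Gm47566, Gm42031, Gm13448 and Gm10076 (43570 and 3399). Rps27rt and several genes named Gm are near-copies of ribosomal protein genes, for which the counting can place reads on the wrong copy.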

How the data were processed

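Lung ILC2s of WT and Pac1-/- mice gave 1 library each. The deposited matrices held raw UMI counts, which the authors produced by running Cell Ranger on reads mapped to mm10 (version 6.1.1 per the submitters' processing notes, 4.0.0 in the file header). Nothing had been normalized, and doublets were not removed here. Reads that map to near-identical genes can be lost or misplaced, and the counting of strand was not given in the sources used here.

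Analysis used pandas 2.3.3 and scikit-learn 1.9.0 with numpy 2.4.6 in Python 3.11.15, scipy 1.17.1 for the intervals and matplotlib 3.10.9 for plots. Barcodes were paired 1 to 1 without replacement within 0.05 of log10 UMIs, rule genes left out. CPM were made from summed counts, with exact Poisson, binomial and conditional binomial intervals. Genes outside the lists were named by the smaller of the log2 ratios of the libraries, 12 in each direction, among those with intervals clear of no change, and between genotypes by the log2 ratio. For the remaining comparisons the same ranking was used and genes were picked from its top after their values were seen. Coordinates are GENCODE M21 and promoter windows RefSeq, both GRCm38. The steps were tested on simulated data. Some genes of the lists are not reported here. Members, lists and tests were chosen with earlier results of these data known. The alternatives tried are listed in the closing section.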

Additional observations from a re-analysis of the deposited data

Results flagged for a closer look

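Of the genes examined, 7 differed from matched other barcodes or from cells with both cytokines in opposite directions in the 2 libraries, each past 1.5-fold with its counting interval clear of no change. Against matched other barcodes these were Hdc, the histamine-forming enzyme gene, at 1.10 in WT (116 against 54 UMIs) and -0.97 in Pac1-/- (25 against 49), the small heat shock gene Hspb1 at -0.67 (61 against 97) and 1.07 (124 against 59), and Cd74, the MHC class II invariant chain gene, at 0.77 (148 against 87) and -1.66 (118 against 373). Up to 37 Hdc, 28 Hspb1 and 69 Cd74 UMIs came from 1 barcode. Without the top barcode of each side Hdc was at -0.45 in Pac1-/- and Cd74 at 0.58 in WT, both within 1.5-fold, so that only Hspb1 of the 3 (-1.21 and 1.03) stayed past the fold in opposite directions. Against cells with both cytokines they were Tnfsf4, the OX40 ligand gene, at 0.97 (76 against 39 UMIs) and -0.99 (19 against 38), Osbpl2 at -0.62 and 0.82, Ptrhd1 at 0.96 and -0.76, and 2700097O09Rik at 0.94 and -0.73.

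Between genotypes, relative to the median gene, Adgrf5 was at 1.14 in Il5-only cells and -0.66 in other barcodes, and Scgb1a1 at 3.36 and -1.02, the value of Scgb1a1 resting on 1 barcode that held 1433 of its 1545 Pac1-/- UMIs. With 1 library per genotype none of these differences between libraries or cell sets was tested.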

How the results depend on the processing

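No paired analysis was possible because each genotype is 1 library. Of 98 counts and shares recomputed under alternatives 46 stayed close to the reported value and 52 moved, and of 1034 values of single genes 872 stayed within their counting interval, 159 moved and 3 changed sign. These were Hbb-bs (3.05) and Hba-a1 (0.77) in WT with a minimum of 1 Il5 UMI and Scgb1a1 in WT (-0.60) without matching on depth. The cause was not tested.

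The Il5-only share in WT and Pac1-/- was 25.2% and 17.9% with a minimum of 1 Il5 UMI, 10.1% and 6.15% with 3, 9.27% and 4.83% at 1000 UMIs and, in Pac1-/- only, 7.62% at 2000 UMIs and 10.2% among barcodes with ILC2 and no T or B cell markers. WT stayed above Pac1-/- in each.

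Against other barcodes, genes higher and lower numbered 10 and 11 with a minimum of 1 Il5 UMI, 78 and 125 with 3, 163 and 319 without deep barcodes, 80 and 190 without matching, 83 and 24 centred on the median gene, 74 and 134 with at least 20 UMIs per gene, 25 and 5 with at least 200, and 24 and 28 with 201 and 141 pairs. Reduction to 2000 UMIs gave 80 higher, and the marker restriction 55 and 23 of 1156 genes. Against cells with both cytokines they numbered 56 and 16 (more than against other barcodes), 14 and 3 with those Il5 minima, 0 and 3 (of 537 genes) with the marker restriction, 6 and 4 at 2000 UMIs, 17 and 14 centred, 100 and 17 with at least 20 UMIs, 0 and 2 with at least 200, 16 and 4 with 201 and 141 pairs, and 8 higher without matching. Between genotypes they were 229 and 277 (of 1921 genes) with the marker restriction, 546 and 356 with at least 200 UMIs, and 727 higher centred. Fewer genes or pairs enter several of these.

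Calca stayed above matched other barcodes in both libraries under each of 11 alternatives, and Perp under the 7 that gave it a value. Calca in WT lay between 0.40, which is within the fold, and 1.47. Ramp3 in WT went down to 0.09 with the marker restriction. Il4 against cells with both cytokines stayed between -1.48 and -0.95 in WT and -1.31 and -0.69 in Pac1-/-. Il5-only neighbours in WT were 24.6% with 10 principal components. The Il13 share at 2000 UMIs was 24.9% at 2 and 34.8% at 11 to 20 Il5 UMIs in WT, and 43.3% in Pac1-/-. That depth, the number of pairs, the removal of top barcodes, the stricter B-like set and centring outside the comparisons with other barcodes, with both-cytokine cells and between genotypes were chosen after seeing the data. Genes under 50 UMIs and Il13 below detection are beyond the depth of these libraries.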
